A study of Mus musculus with 90 samples.

Results

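Lin28a and the genes that make and load small RNAs were followed through the first divisions of mouse embryos with and without maternal Plag1. The group holds 10 genes, chosen by symbol from the 24422 gene rows of the count table: Lin28a, Lin28b and Trim71, which act on let-7 or beside it, Drosha and Dgcr8, which cut primary microRNAs, Xpo5, Dicer1 and Tarbp2, which export and dice the precursors, and the Argonautes Ago2 and Ago1. The rule used symbols only, and all 10 genes passed the filter on low counts.

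MicroRNA genes are transcribed into long primary transcripts, which DROSHA and its partner DGCR8 cut in the nucleus into hairpins. Exportin-5, the product of Xpo5, carries the hairpins to the cytoplasm, where DICER1 with TARBP2 trims them, and an Argonaute protein holds the mature strand and finds target mRNAs. LIN28A and LIN28B bind let-7 precursors and block their maturation, and TRIM71 is an RNA-binding protein whose mRNA is itself a classic let-7 target. In mouse oocytes DICER1 also makes endogenous small interfering RNAs, and microRNAs are known to have little activity there.

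The small RNAs that this machinery serves are shown first, because they tell what the 10 genes act on, although the assay reads polyadenylated 5′ ends and does not measure them. The sequences are from RefSeq. All 8 mature 5p forms of the let-7 letters a to g and i in the RefSeq table share the same seed, bases 2 to 8, which is in capitals below. The miR-290 family, expressed from the zygotic genome in early mouse embryos, carries another seed, shown by miR-294.
mmu-let-7a-5p: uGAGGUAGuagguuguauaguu
mmu-let-7g-5p: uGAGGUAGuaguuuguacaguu
mmu-miR-294-3p: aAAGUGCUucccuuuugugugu

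LIN28 proteins are known to recognise the letters GGAG in let-7 precursors. These letters, searched on the transcribed strand, occurred in 9 of the 11 let-7 hairpins in the table, outside the 5p mature form in each of the 9, and in 44.5% of all 1005 mouse hairpins, so the match by itself is common. The hairpins of Mirlet7b and Mirlet7c-2 had none. The hairpin of Mirlet7g (GRCm38.p6, chr9:106178840-106178927, plus strand) shows the match in capitals.
Mirlet7g: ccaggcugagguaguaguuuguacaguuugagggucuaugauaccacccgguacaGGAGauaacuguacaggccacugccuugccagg
In the count table all 11 let-7 rows were at 0 in every kept library, and the 9 rows of the miR-290 cluster held 8 counts in all. Other microRNA gene rows were not empty. Of all 1174 rows whose symbols start with Mir, 248 had a count, with 411061 counts in all.

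The libraries came from single unfertilised oocytes arrested in metaphase II (MII), 2-cell (2c) embryos and 8-cell (8c) embryos of superovulated CD-1 females. WT oocytes and embryos came from wildtype females, and KO oocytes from females that carry lacZ in place of the Plag1 reading frame on both alleles. The matPlag1KO embryos, written KO in the comparisons, came from KO females mated with WT studs and so carry an intact paternal allele. Oocytes were collected 21 to 23 h after hCG and not cultured, 2c embryos were taken at 45 to 47 h and 8c embryos at 71 to 73 h, both from culture. Of 90 libraries 78 were kept, namely 16 WT and 14 KO oocytes, 11 WT and 11 KO 2c embryos, and 15 WT and 11 KO 8c embryos. Each kept library was 1 oocyte or embryo, and because the labels name no donor females, p-values measure the spread between single oocytes or embryos, some of which may share a mother.

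Kept libraries held between 92475 gene counts, in a 2c embryo, and 2502421, in an oocyte. Plag1, the targeted gene, had a count in 16 of 16 WT and 3 of 14 KO oocytes. Counts of it appeared in only 1 of the 11 WT libraries at 2c but in 9 of the 11 labelled KO, so directions at 2c are those of the labels. As given above, the KO embryos carry an intact paternal allele. The summed level of 9 oocyte markers had a median of 8380 CPM in WT oocytes, from 6107 to 35400, and of 25490 CPM in KO oocytes, from 5489 to 32760, where CPM stands for counts per 1000000 gene counts on TMM-scaled library sizes. Markers of cumulus cells summed to at most 26.8 CPM in any oocyte, and 6 of their 11 genes were at 0 in each oocyte group. At 2c the medians in WT and KO embryos were 3507 and 5414 CPM for the oocyte markers, 189.9 and 401 CPM for 7 markers of the 2c stage, of which Tcstv1, Tcstv3 and Zscan4f were at 0 in both, and 207 and 376 CPM for 8 markers of the 8c stage. Those 8 markers had medians of 1359 CPM in WT 8c embryos and 492.5 CPM in KO 8c embryos. The part of these marker differences in the results that follow was not tested.

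**Figure D1:**
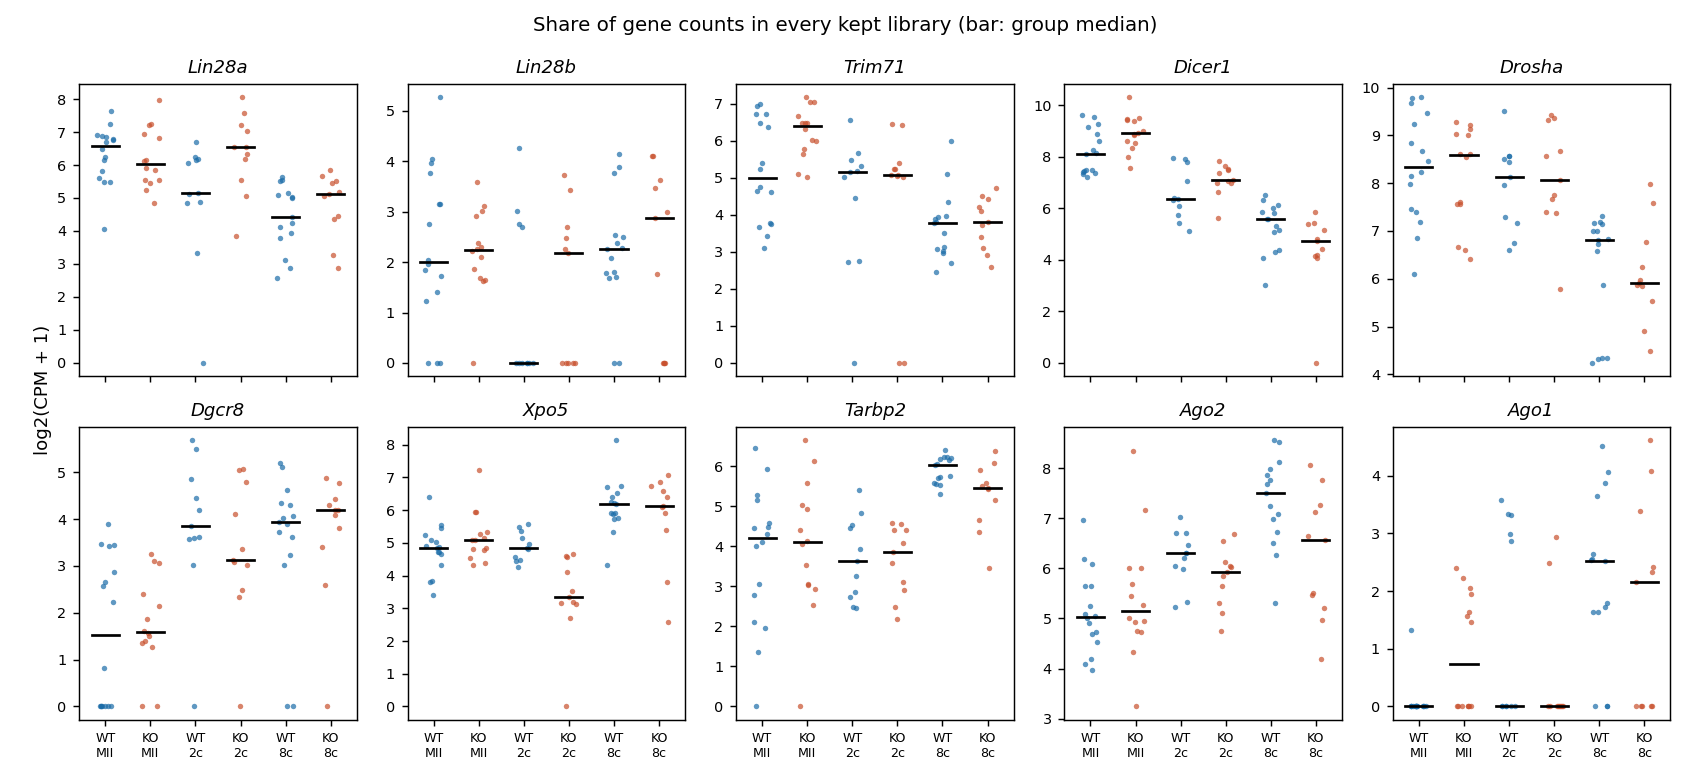
Level of each of the 10 genes as log2(CPM + 1) in every kept library, with 1 point for each oocyte or embryo, WT in blue, KO in orange, and a bar at the group median. Dicer1, Drosha and Trim71 sit lowest at 8c, Xpo5, Tarbp2 and Ago2 sit highest there, and within a stage the points of the genotypes overlap in each panel.

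The first question was whether loss of maternal Plag1 changed these mRNAs at any stage. In edgeR's quasi-likelihood test no member reached an adjusted p below 0.05, whether in oocytes, at 2c or at 8c. Of all 16511 genes tested, 0.781% passed in oocytes, 4.92% at 2c and 1.74% at 8c. At an unadjusted p under 0.05 there were 2 of 10 members at each stage, beside 10.2%, 20.5% and 14.3% of all genes in oocytes, at 2c and at 8c, and DESeq2's Wald test called 0 in oocytes, 1 at 2c and 0 at 8c.

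Lin28a came nearest at 2c. The gene lies on chromosome 4, from 133559245 to 133574731 on the minus strand (mm9, as are the positions of all genes here). In WT 2c embryos its level ran from 0 through a median of 34.5 to 103.6 CPM, and in KO 2c embryos from 13.4 through 92.2 to 266.5 CPM. The groups overlapped, but 9 of 11 KO embryos lay above the WT median and 10 of 11 WT embryos lay below the KO median. The level was 2.25-fold higher in KO, a log2 fold change of 1.17 (SE 0.41, p = 0.00542), and the adjusted p of edgeR's test was 0.075.

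The libraries were made in 2 pools, libA and libB in the labels, and the Lin28a difference was alike in both, with mean levels of 49.9 CPM in WT and 107 CPM in KO embryos of libA, and 45.7 and 104 CPM in libB. It passed the threshold in 3 of 8 alternatives, with DESeq2's size factors in edgeR (adjusted p = 0.0303), with DESeq2's own test (adjusted p = 0.0118) and in edgeR with all libraries kept (adjusted p = 0.0445). Over all 8 alternatives the log2 fold change ran from 1.05 to 1.41 and the adjusted p from 0.0118 to 0.620. DESeq2's size factors also raised the median over all genes at 2c, from 0.12 to 0.31 on the log2 scale, and the share of called genes that were higher in KO from 46.7% to 72.5%.

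Xpo5, the exportin of the hairpins, moved the other way at 2c. It lies on chromosome 17, from 46339804 to 46379248 on the plus strand, and the row of Mir693 lies within the same interval and strand. WT 2c embryos ran from 18.2 through a median of 27.9 to 46.9 CPM, and KO 2c embryos from 0 through 9.22 to 24.5 CPM. The ranges overlapped, yet 0 of 11 KO embryos lay above the WT median and 0 of 11 WT embryos lay below the KO median. The level was 2.32-fold lower in KO (log2 fold change -1.22, SE 0.44, p = 0.00678), with an adjusted p of 0.083 in edgeR's test, and no alternative brought it past the threshold (adjusted p from 0.0833 to 0.591). These are few molecules, 62 counts in all 11 WT and 32 in all 11 KO embryos.

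The promoters of these 2 genes are printed because they stood nearest the threshold at 2c, in opposite directions. The windows run from 250 bases before to 50 after the RefSeq start site. Each holds 1 match to the published PLAG1 consensus, a core and a G-rich cluster set apart by a spacer of 6 to 8 bases, searched on both strands and shown in capitals. In Lin28a (GRCm38.p6, chr4:134018767-134019066, minus strand) the match lies on the gene's own strand, and in Xpo5 (chr17:46202561-46202860, plus strand) on the opposite strand.
Lin28a: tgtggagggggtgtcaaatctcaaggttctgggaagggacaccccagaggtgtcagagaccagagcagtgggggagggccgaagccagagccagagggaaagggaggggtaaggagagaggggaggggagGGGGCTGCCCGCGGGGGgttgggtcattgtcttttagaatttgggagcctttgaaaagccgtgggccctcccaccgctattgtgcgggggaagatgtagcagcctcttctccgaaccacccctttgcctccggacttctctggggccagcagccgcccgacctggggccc
Xpo5: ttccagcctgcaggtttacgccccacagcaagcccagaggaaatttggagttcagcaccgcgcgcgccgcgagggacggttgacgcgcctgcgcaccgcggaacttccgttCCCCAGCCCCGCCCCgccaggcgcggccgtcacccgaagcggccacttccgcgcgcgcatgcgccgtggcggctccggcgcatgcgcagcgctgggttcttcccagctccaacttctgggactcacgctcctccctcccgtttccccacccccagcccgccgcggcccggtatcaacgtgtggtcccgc
Of the 9 members with a promoter in the table, 4 held a match (Lin28a, Xpo5, Trim71 and Ago1) against 21.2% of the 27025 genes with a promoter. The 9 genes' promoters are rich in CG, with a median of 34 CG steps against 7 over all 32851 promoters, and the consensus is itself G-rich.

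In oocytes the members with an unadjusted p under 0.05 were Dicer1 and Ago1, the latter on the few counts given further on. Dicer1, on chromosome 12 from 105925952 to 105990162 on the minus strand, ran from 148 through a median of 278 to 797 CPM in WT oocytes and from 187 through 479.8 to 1281 CPM in KO oocytes. The ranges overlapped, with 12 of 14 KO oocytes above the WT median. The log2 fold change was 0.61 (SE 0.29, p = 0.0367), with an adjusted p of 0.434 in edgeR's test.

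Trim71, on chromosome 9 from 114420391 to 114473487 on the minus strand, ran from 7.56 through a median of 31.3 to 126 CPM in WT oocytes and from 31.2 through 83.5 to 144.4 CPM in KO oocytes. Of the KO oocytes 13 of 14 lay above the WT median, and 11 of 16 WT oocytes lay below the KO median, with overlap. The log2 fold change was 0.61 (SE 0.36), with an adjusted p of 0.597 in edgeR's test.

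The labels give each library a position code such as A1. The same position held a WT oocyte in 1 pool and a KO oocyte in the other, and the oocytes of a position deviated together, so the comparison was repeated with the position as a block and the pool as a term. In that edgeR fit of 14 pairs Dicer1 (log2 fold change 0.60, adjusted p = 0.00023) and Trim71 (0.91, adjusted p = 0.000588) were higher in KO oocytes, 2 of 10 members, beside 6.1% of the 12978 genes tested that passed and 4.92% that were higher. The other 8 members did not pass.

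The same pairs split by pool. At the 7 positions whose WT oocyte was in libA, Dicer1 was higher in the KO oocyte in 1 of 7 pairs, with a median difference of -0.60 on the log2(CPM + 1) scale. At the 7 positions whose WT oocyte was in libB it was higher in 7 of 7 pairs, with a median difference of 1.51. Trim71 was higher in KO in 4 of 7 and in 7 of 7 pairs, with medians of 0.06 and 2.06. Both mRNAs were measured higher in libA in WT oocytes, Dicer1 at means of 506 and 198 CPM in libA and libB and Trim71 at 81.1 and 23.1 CPM. In KO oocytes the Trim71 means were 83.1 CPM in libA and 80.6 CPM in libB. In libB, WT oocytes held 222357 to 591662 gene counts and kept KO oocytes 438233 to 1772844. WT oocytes of libA held 242343 to 2502421. The part of depth in these differences was not tested. Within a pool, the mean of Dicer1 was higher in KO in both, at 677 CPM in libA and 398 CPM in libB, with log2 fold changes of 0.45 and 0.99 (edgeR adjusted p = 0.726 and 0.113). Within libA alone Trim71 had a log2 fold change of 0.04, and within libB alone one of 1.76 (adjusted p = 0.0285). Tarbp2 also passed in libB alone (2.06, edgeR adjusted p = 0.0147), with means of 9.59 CPM in WT and 39.98 CPM in KO. In libA its means went the other way, at 34.9 CPM in WT and 12.3 CPM in KO.

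**Figure D2:**
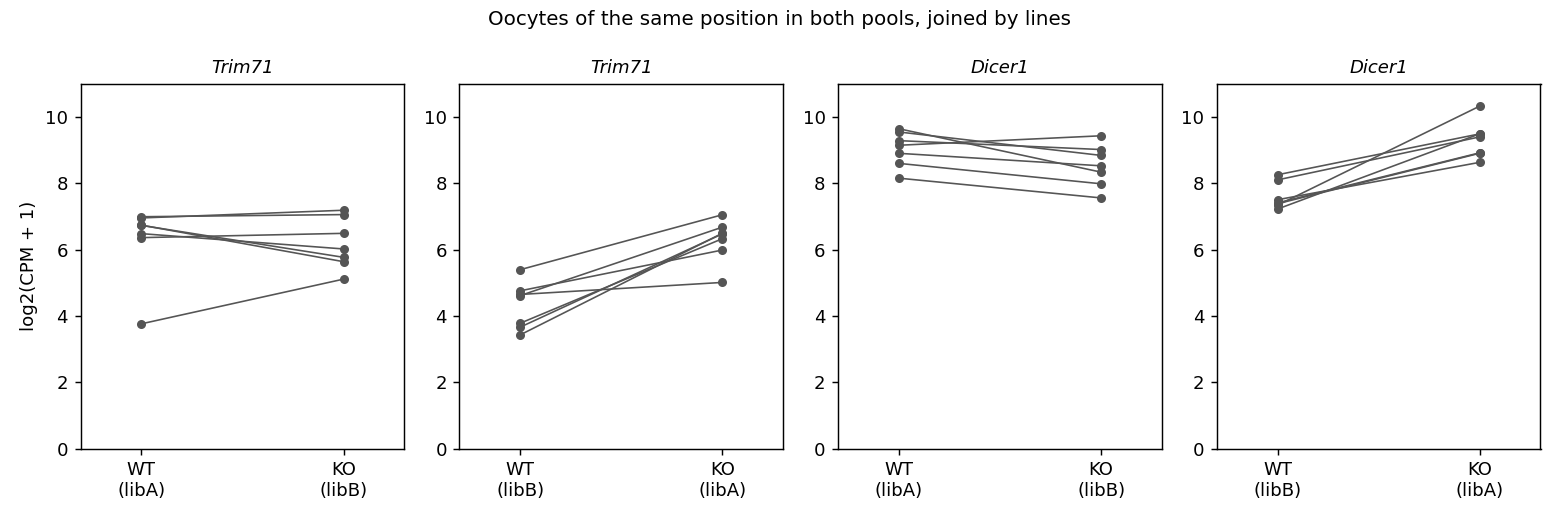
Trim71 and Dicer1 in oocytes of the same position in both pools, as log2(CPM + 1), each line joining the WT and the KO oocyte of a position, with the pool of each given under the axis. KO lies above WT in 7 of 7 pairs for both genes where the WT oocyte was in libB, and in 4 of 7 pairs for Trim71 and 1 of 7 for Dicer1 where it was in libA.

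At 8c the members with an unadjusted p under 0.05 were Ago2, the Argonaute able to cut its targets, and Dicer1. Ago2 ran from 38.6 through a median of 179.7 to 374.6 CPM in WT and from 17.2 through 93.6 to 267 CPM in KO 8c embryos, with 9 of 11 KO embryos below the WT median. Its log2 fold change was -0.85 (SE 0.37, p = 0.0226, edgeR adjusted p = 0.244). The Ago2 means of WT and KO were 175 and 137 CPM in libA, and 199.8 and 63.3 CPM in libB. Over 8 alternatives its log2 fold change ran from -1.67 to -0.37, and none passed. Dicer1 ran from 7.15 through 46.5 to 89.8 CPM in WT and from 0 through 25.3 to 57.2 CPM in KO, with 10 of 11 KO embryos below the WT median (log2 fold change -0.70, SE 0.35, edgeR adjusted p = 0.346). Both sets of ranges overlapped.

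Ago1, Lin28b and Dgcr8 were at the lower limit of the assay. Ago1, on chromosome 4 from 126112256 to 126145827 on the minus strand, had 4 counts in 1 of 16 WT oocytes and 13 counts in 7 of 14 KO oocytes, and 8 counts in 5 of 11 WT and 2 counts in 2 of 11 KO embryos at 2c. Most values of Ago1 before 8c were therefore 0, and its fitted differences (1.66 in oocytes and -1.84 at 2c, SE 0.68 and 0.97) rest on those counts alone. The value at 2c turned direction between the pools, from 3.13 in libA alone to -4.39 in libB alone. Lin28b, on chromosome 10 from 45096425 to 45190007 on the minus strand, had a highest level of 37.8 CPM, in a WT oocyte, and genotype differences between -0.64 and 0.32 with SE of 0.53 to 0.81. Dgcr8, on chromosome 16 from 18254058 to 18289261 on the minus strand, had genotype differences between -0.60 and 0.06, with SE of 0.50 to 0.59. The rows of Gm24572 and Mir1306 overlap it on the same strand, and that of Trmt2a on the other. Whether the counting used strand is not given in the sources used here. Reads of these rows and of Dgcr8 therefore cannot be told apart where they overlap. Drosha, on chromosome 15 from 12754570 to 12865046 on the plus strand, was well covered and differed by -0.27 in oocytes, 0.25 at 2c and -0.08 at 8c, each within 1 SE of 0.34 to 0.40. The 95% interval of the Drosha difference at 2c ran from -0.55 to 1.04.

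**Figure D3:**
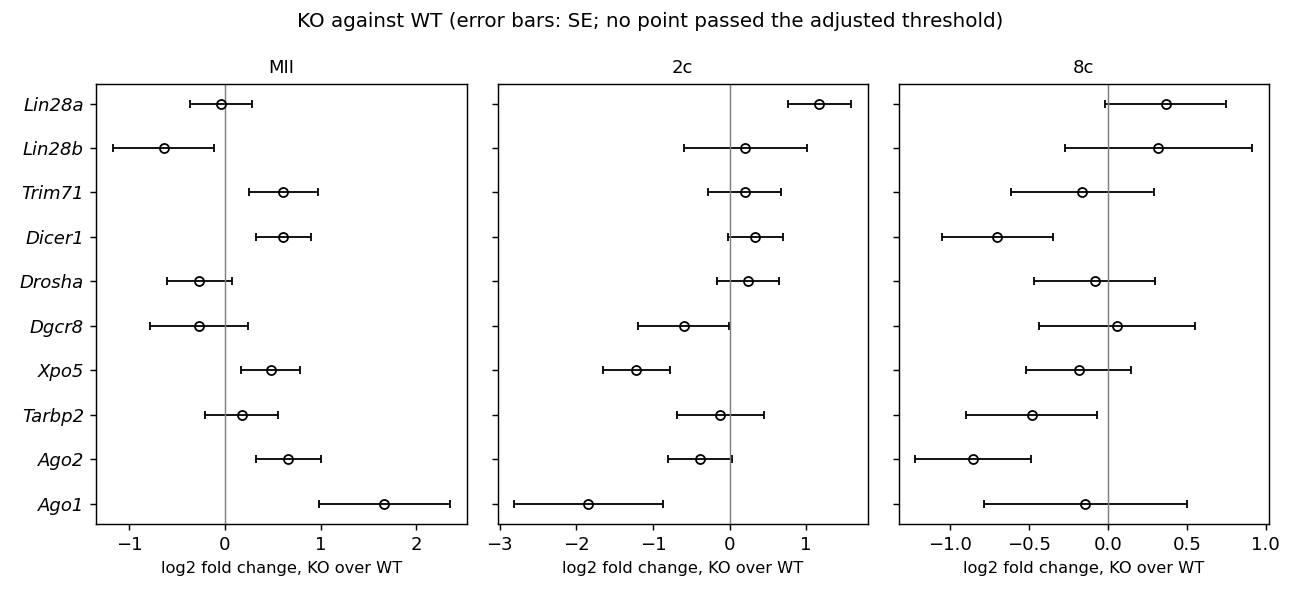
Log2 fold change of KO over WT for each of the 10 genes in oocytes, at 2c and at 8c, with bars of 1 SE. At 2c Lin28a lies at 1.17 and Xpo5 at -1.22, and no point passed an adjusted p under 0.05.

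The next question was whether the genotype difference itself changed between stages. No member passed for 2c against MII, where 3.31% of all genes did, or for 2c against 8c, where 2.3% did. At an unadjusted p under 0.05 there were 3 of 10 members and 1 of 10, beside 17.7% and 17.9% of all genes, and DESeq2's Wald test called 0 in both. The nearest was Xpo5, whose KO difference was 1.69 lower at 2c than in oocytes on the log2 scale (-1.69, SE 0.54, edgeR adjusted p = 0.0572, with alternatives from 0.0552 to 0.516). Lin28a went the other way at 1.21 (SE 0.53, edgeR adjusted p = 0.196, alternatives from 0.0507 to 0.566). Ago1 had -3.51 (SE 1.16, edgeR adjusted p = 0.0711) on the few counts given above, with 1.61 in libA alone and -6.59 in libB alone.

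Across development the members were read on the TMM scale, which follows a gene's share of the gene counts, and on the spike-in scale, which follows its amount against RNA added to each library. On the spike-in scale the median over all genes was -1.46 in WT and -1.42 in KO from MII to 2c, and 0.53 and 0.30 from 2c to 8c. On that scale 7 of 10 members fell from MII to 2c in WT and 8 of 10 in KO, beside 51.3% and 50.3% of all genes, and 0 rose, beside 14.1% and 13.5%. The members' median was -2.25 in WT and -1.97 in KO. From 2c to 8c the WT embryos had 3 members that rose and 0 that fell and the KO embryos 4 and 2, beside 31.9% higher and 16.2% lower genes in WT and 29.1% and 19.5% in KO. On the TMM scale, 3 members rose and 2 fell from oocyte to 2c in WT, against 1 and 3 in KO, beside 27.5% higher and 23.1% lower in WT and 29.1% and 19.3% in KO. From 2c to 8c on that scale 3 rose and 4 fell in each genotype, beside 21% and 28.9% in WT and 21.2% and 30.3% in KO.

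Dicer1 was the member that fell furthest from MII to 2c in WT on both scales. On the spike-in scale it went from a median of 10.7 counts per 1000 spike-in counts in WT oocytes, with a range of 3.84 to 138.8, to 1.56 in WT 2c embryos, from 0.647 to 4.98. The fold change was 11.2-fold lower (log2 fold change -3.49, SE 0.49, edgeR adjusted p = 2.63e-09), and in KO 12.4-fold lower (-3.64, SE 0.50, edgeR adjusted p = 1.18e-09). In KO the spike-in values of oocytes, from 8.65 to 88, did not overlap those of 2c embryos, from 0.723 to 5.50.

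Its share of counts fell again from 2c to 8c, by 1.37 in WT (SE 0.33, edgeR adjusted p = 0.000299) and by 2.41 in KO (SE 0.38, edgeR adjusted p = 5.53e-08) on the TMM scale. On the spike-in scale the same step fell by 1.67 in KO (SE 0.49, edgeR adjusted p = 0.00297), while WT gave -0.42 (SE 0.44, edgeR adjusted p = 0.435). The difference of the KO and WT steps on the TMM scale is the genotype difference at 2c less that at 8c, 1.04 with an edgeR adjusted p of 0.246. In oocytes the CPM of Dicer1 did not overlap those at 8c in either genotype.

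Drosha, the nuclear nuclease, fell from MII to 2c on the spike-in scale in WT (-2.17, SE 0.49, edgeR adjusted p = 9.44e-05) and in KO (-1.88, SE 0.49, edgeR adjusted p = 0.000652). Its share of counts gave -0.49 and 0.02 for the same step and did not pass. Between 2c and 8c its share fell 3.14-fold in WT and 3.95-fold in KO (edgeR adjusted p = 0.000125 and 3.91e-05), from a median of 281 to 111 CPM in WT and from 267.4 to 59.2 CPM in KO. On the spike-in scale that step was -0.71 in WT (edgeR adjusted p = 0.202) and -1.18 in KO (edgeR adjusted p = 0.0444, and 0.0803 with all libraries kept).

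Dgcr8, the partner of Drosha, had its share higher at 2c than in oocytes, the opposite of the Dicer1 share. The WT median went from 2.21 CPM, with 9 of 16 oocytes above 0, to 13.4 CPM, with 10 of 11 embryos above 0 (log2 fold change 2.17, SE 0.54, edgeR adjusted p = 0.000452), and the KO step was 1.84 (SE 0.57, edgeR adjusted p = 0.00474). On the spike-in scale the amounts gave 0.66 and -0.17, which did not pass. The higher share did not pass in libA alone in WT (edgeR adjusted p = 0.398) or in libB alone in KO (edgeR adjusted p = 0.202). From 2c to 8c it passed on neither scale in either genotype.

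Xpo5, Tarbp2 and Ago2 rose from 2c to 8c on the spike-in scale in both genotypes. Tarbp2, the double-stranded RNA-binding partner of Dicer, lies on chromosome 15 from 102348623 to 102354107 on the plus strand. It went from 0.202 counts per 1000 spike-in counts in WT 2c embryos, with a range of 0.094 to 0.717, to 2.38 in WT 8c embryos, from 0.960 to 3.40, and these ranges did not overlap. The rise was 7.72-fold (log2 fold change 2.95, SE 0.61, edgeR adjusted p = 3.28e-05) in WT and 5.29-fold in KO (2.40, SE 0.62, edgeR adjusted p = 0.000849).

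Xpo5 rose 4.72-fold in WT (2.24, SE 0.46, edgeR adjusted p = 2.96e-05) and 8.55-fold in KO (3.10, SE 0.51, edgeR adjusted p = 2.80e-07) on the spike-in scale from 2c to 8c. On the TMM scale the same steps were 1.42 and 2.45, and both passed. From MII to 2c the WT share of Xpo5 gave 0.00 (SE 0.36) and the KO share fell by 1.70 (SE 0.40, edgeR adjusted p = 0.000211). The test of that difference is the -1.69 given above. On the spike-in scale Xpo5 fell from MII to 2c in both genotypes. The values were -1.57 in WT (SE 0.45, edgeR adjusted p = 0.00163) and -3.565 in KO (SE 0.50, edgeR adjusted p = 3.03e-09). The WT fall on that scale did not pass in libB alone (-1.21, edgeR adjusted p = 0.0606). In libB alone the KO fall in the share of Xpo5 did not pass (-1.056, edgeR adjusted p = 0.1185). The WT rise in its share from 2c to 8c did not pass in libA alone (1.34, edgeR adjusted p = 0.1012).

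Ago2, on chromosome 15 from 72932055 to 73015377 on the minus strand, rose 4.67-fold in WT (2.22, SE 0.48, edgeR adjusted p = 7.25e-05) and 2.88-fold in KO (1.53, SE 0.50, edgeR adjusted p = 0.00767) on the spike-in scale from 2c to 8c. Its WT median went from 1.38 to 6.75 counts per 1000 spike-in counts, with overlap. On the TMM scale the step was 1.27 in WT (edgeR adjusted p = 0.00381) and 0.80 in KO (edgeR adjusted p = 0.0896). The spike-in rise did not pass in libA alone in WT (edgeR adjusted p = 0.0526) or in libB alone in KO (edgeR adjusted p = 0.202). Ago1 rose from 2c to 8c in KO on both scales (2.31 and 2.70), from 2 counts in all at 2c to 20 at 8c (adjusted p = 0.118 in DESeq2 for the TMM step), and in WT the step did not pass.

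**Figure D4:**
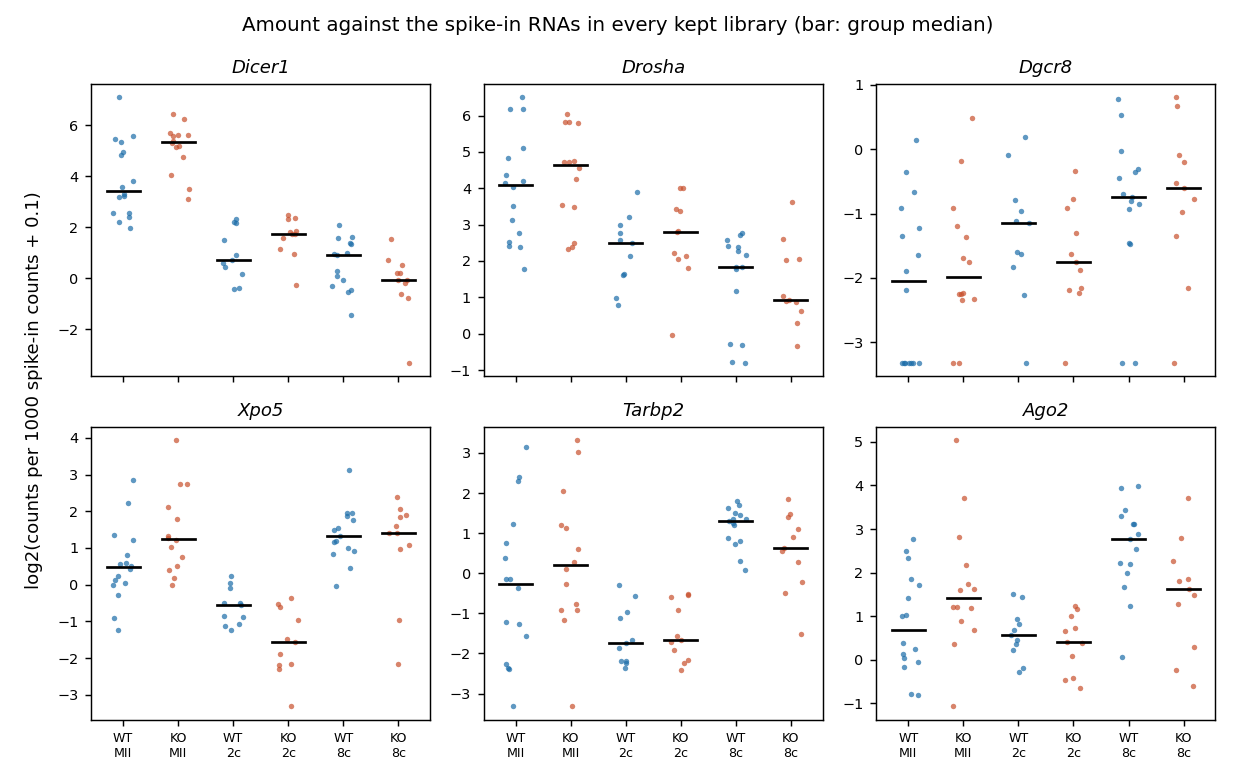
Amount of 6 of the genes in every kept library, as log2 of counts per 1000 spike-in counts with 0.1 added, WT in blue, KO in orange, with bars at group medians. Dicer1 and Drosha are highest in oocytes, and Tarbp2 at 8c in WT lies above all WT 2c embryos.

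Lin28a fell from MII to 2c on the spike-in scale by 2.38 in WT (SE 0.48, edgeR adjusted p = 1.12e-05) and by 1.48 in KO (SE 0.46, edgeR adjusted p = 0.00346). On the TMM scale it fell by 0.93 in WT (SE 0.38, edgeR adjusted p = 0.0342), from a median of 94.9 to 34.5 CPM, and gave 0.28 in KO, from 64.0 to 92.2 CPM. From 2c to 8c its share fell in both genotypes (-0.92 and -1.73, edgeR adjusted p = 0.0414 and 0.000233), while on the spike-in scale the change was 0.03 in WT and -0.99 in KO (edgeR adjusted p = 0.979 and 0.0795). The WT falls in share passed in neither pool alone (edgeR adjusted p from 0.0906 to 0.311), and the fall from 2c to 8c passed neither without the gene filter (adjusted p = 0.0519) nor with all libraries kept (adjusted p = 0.0854).

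Trim71 fell from MII to 2c on the spike-in scale by 2.70 in WT and 3.02 in KO (edgeR adjusted p = 5.64e-05 and 1.20e-05). In WT the fall rested on libA, since libB alone gave 0.03. Its share from 2c to 8c fell by 1.05 in WT (edgeR adjusted p = 0.0404) and 1.41 in KO (edgeR adjusted p = 0.0111), and in libA alone the WT value was 0.17. Without the gene filter and with all libraries kept the WT value did not pass (edgeR adjusted p = 0.0546 and 0.0621). Every KO oocyte had a higher level of Trim71, at 31.2 CPM or more, than any KO 8c embryo, at 25.6 CPM or less. Lin28b fell from MII to 2c on the spike-in scale in both genotypes (-2.34 and -1.82, edgeR adjusted p = 0.00316 and 0.0192) and passed in no other step. In KO with all libraries kept the edgeR adjusted p of the fall was 0.0556. The KO fall passed in neither pool alone (edgeR adjusted p = 0.0612 in libA and 0.1828 in libB). The WT fall did not pass in libB alone (edgeR adjusted p = 0.1329).

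**Figure D5:**
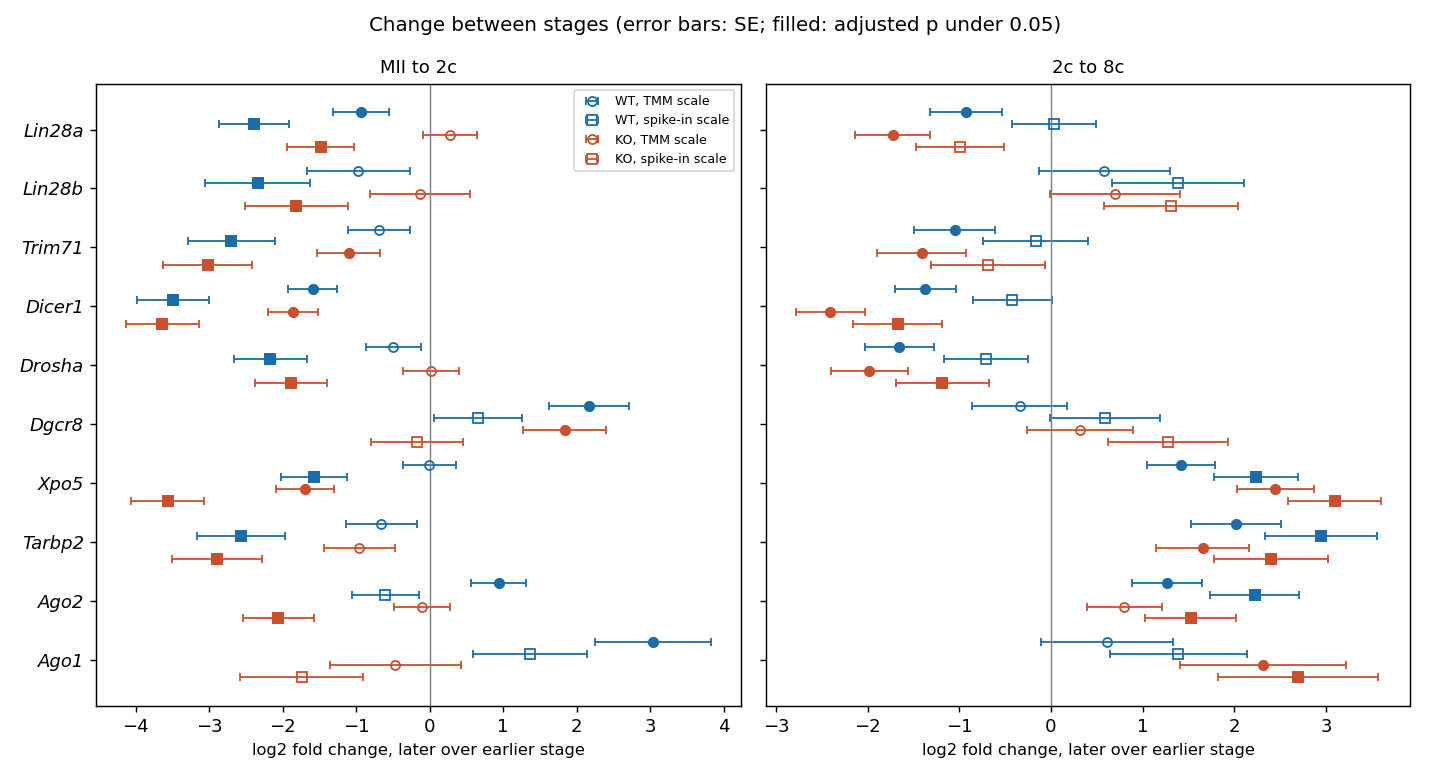
Log2 fold change between stages for each gene, with bars of 1 SE, circles for the TMM scale, squares for the spike-in scale, WT in blue, KO in orange, and filled symbols where the adjusted p was under 0.05. From MII to 2c the squares lie left of the circles, and from 2c to 8c Xpo5, Tarbp2 and Ago2 lie right of 0 on both scales.

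By the order of mean CPM over the 6 groups, Lin28a ran from KO 2c (105.5 ± 73.9, SD, n = 11) through WT oocytes (91 ± 45.7, SD, n = 16), KO oocytes (88.2 ± 61.8, SD, n = 14) and WT 2c (47.2 ± 32, SD, n = 11) to KO 8c (31.8 ± 16.3, SD, n = 11) and WT 8c (24.6 ± 14.7, SD, n = 15). Neighbours in that order differed by less than the SD of either, other than KO oocytes and WT 2c, whose means differ by more than the WT 2c SD. Dicer1 ran from KO oocytes (538 ± 273.5, SD, n = 14) and WT oocytes (352 ± 222, SD, n = 16) through KO 2c (147 ± 50.7, SD, n = 11) and WT 2c (116 ± 81.4, SD, n = 11) to WT 8c (45 ± 24.3, SD, n = 15) and KO 8c (27.1 ± 15.8, SD, n = 11). Within each stage the Dicer1 means differed by less than the larger SD.

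Over the 78 libraries and 8418 genes with a mean of at least 10 CPM, the genes most like Dicer1 in log2(CPM + 1) were Tsc22d1 (r = 0.87), Tbcd (r = 0.861) and Gdf9 (r = 0.858), the last an oocyte growth factor. All 3 had their highest mean in oocytes. For Lin28a they were Thsd7b (r = 0.664), 1700084F23Rik (r = 0.657) and Cipc (r = 0.654). These r describe libraries of 3 stages and differing depth, which the genes share.

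A wider set of 72 genes of the same pathways was followed beside the members, of which 69 passed the filter on low counts (not Piwil4, Tdrd6 and Tsnax). In oocytes 1 of 69 was called and it was higher, Tdrd9, a helicase of the piRNA pathway, with medians of 11.9 CPM in WT and 41.4 CPM in KO oocytes (log2 fold change 2.23, SE 0.43, edgeR adjusted p = 0.000551). None was lower.

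At 2c 6 of the 69 were lower and 0 higher in KO, beside 2.62% lower and 2.3% higher genes of all. Of the 11 listed for nuclear processing 4 were lower. These were Ncbp2, the small subunit of the nuclear cap-binding complex (-1.22, SE 0.28, edgeR adjusted p = 0.00426), the RNA-binding proteins Hnrnpa2b1 (-1.03, SE 0.25) and Hnrnpa1 (-0.88, SE 0.26), and Erh (-0.94, SE 0.27), a partner of the Microprocessor formed by DROSHA and DGCR8. Ran, the GTPase that exportin-5 needs to carry its cargo, was lower too (-1.11, SE 0.29, edgeR adjusted p = 0.016), with medians of 500.4 CPM in WT and 219 CPM in KO. Rbm3, a cold-inducible RNA-binding protein, was lower at 2c (-1.06, SE 0.32, edgeR adjusted p = 0.0356) and at 8c (-0.97, SE 0.28, edgeR adjusted p = 0.045). Hnrnpa1 and Ran have near-identical copies in the genome, so their counts are uncertain where such copies take reads.

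At 8c 2 of the 69 were lower, Rbm3 and Fkbp4, a co-chaperone of HSP90 (-1.30, SE 0.37, edgeR adjusted p = 0.045), and 0 were higher. For the genotype difference at 2c against MII 4 of 69 passed, all lower, namely Rbm3 (-1.45, SE 0.41), Ncbp2 (-1.29, SE 0.36), Hnrnpa2b1 (-1.19, SE 0.32) and Exd1 (-3.02, SE 0.81), a piRNA factor that had counts in 8 of 11 WT and 4 of 11 KO 2c embryos. For 2c against 8c Ncbp2 was lower (-1.51, SE 0.37, edgeR adjusted p = 0.0151), and Msi1 passed as higher on 7 counts in 2 KO 2c embryos and 13 counts in 3 WT 8c embryos, with 0 in the other 2 groups. Of all genes, 1.74% were called at 8c, 3.31% passed for 2c against MII and 2.3% for 2c against 8c.

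In WT, the 18 tested genes of the piRNA pathway, which silences transposons, had 9 lower and 1 higher from MII to 2c on the TMM scale, and 15 lower and 0 higher on the spike-in scale, beside 23.1% lower and 27.5% higher of all genes on the TMM scale and 51.3% and 14.1% on the spike-in scale. Tdrd12 (-3.39, SE 0.43) and Asz1 (-4.86, SE 0.62) fell most clearly on the TMM scale, while Piwil2 rose (2.98, SE 0.58). The 11 genes of nuclear processing had 6 higher and 0 lower from MII to 2c on the TMM scale, with 1 higher and 5 lower on the spike-in scale, against the same shares of all genes. Ncbp1, the large subunit of the nuclear cap-binding complex, rose at that step on both scales (5.48, SE 0.46, and 3.89, SE 0.52). From 2c to 8c 7 of the 11 rose and 0 fell on the spike-in scale in WT, and 10 rose and 0 fell in KO, beside 31.9% and 29.1% of all genes that rose.

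The 12 genes listed under let-7 control do not all act on let-7 precursors. From MII to 2c in WT 2 were higher and 2 lower on the TMM scale, beside 27.5% and 23.1% of all genes. On the spike-in scale 1 was higher and 9 lower, beside 14.1% and 51.3%. Among the 12, Igf2bp1, which encodes an mRNA-binding protein, was higher at 2c than in oocytes of WT on both scales (TMM 4.63, SE 0.54, and spike-in 3.23, SE 0.59). Hmga2, a chromatin protein whose mRNA is a let-7 target, fell at that step on both scales (-1.81, SE 0.49, and -3.68, SE 0.61) and rose from 2c to 8c (3.73, SE 0.50, and 4.71, SE 0.64). Of the 22 Argonautes and effectors, 9 were higher and 6 lower in WT from MII to 2c on the TMM scale, beside 27.5% higher and 23.1% lower of all genes, and 9 and 6 from 2c to 8c, beside 21% and 28.9%. Hsp90aa1, a chaperone used in loading Argonautes, fell at the first step and rose at the next (-3.06, SE 0.27, and 2.61, SE 0.27, TMM scale).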

How the data were processed

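The authors sequenced the 5′ ends of polyadenylated transcripts of single oocytes and embryos with molecular identifiers (a modified STRT protocol), aligned the reads to mm9, counted with HOMER, and deposited raw counts for 24422 gene rows and 92 spike-in RNAs in 90 libraries. The values are deposited counts, not normalized. Each tag marks the start of a transcript, so counts do not grow with length. The labels name 2 pools, libA and libB, and a position code in each; both pools held every stage and genotype. No column was left unmatched, and no library was a copy of another of its own group (lowest chi-square per degree of freedom 3.54). Libraries of different groups were not compared in this way.

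Libraries were dropped where the median CPM was under 1 (12 of them), and the filter for genes was 1 CPM or more in 5 or more of the rest (16511 passed). A single model of the 6 group means was fitted in edgeR 4.0.16 (R 4.3.3) by the quasi-likelihood test, with Benjamini-Hochberg adjustment over all genes and a threshold of 0.05. Genotypes were compared with TMM factors, stages with TMM factors and with spike-in totals as library sizes. DESeq2 1.42.0 and other scalings, filters, single pools and a position block were alternatives. Fits were tested on simulated data. Kept totals ran from 92475 to 2502421 gene counts, so a few counts per library were common for the rarest members.

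Positions paired oocytes of opposite genotype. Centred on group and pool means, deviations of the 14 pairs correlated at 0.148 to 0.782 over 8418 genes, all above 0.1, and centred on group means alone 12 of the 14 did.

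All members are described, with wider-list genes named where called between genotypes and up to 3 for each role by lowest adjusted p between stages. Genes most like Lin28a and Dicer1 were the 3 highest by Pearson correlation. The members and lists were chosen with earlier results of these data known. The PLAG1 consensus was searched in RefSeq promoters.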

Additional observations from a re-analysis of the deposited data

How the results depend on the processing

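Of the counts of called members under an alternative, 81 stayed within 1.5 times the main count and 12 did not. Between genotypes in oocytes, 0 members became 2 in libB alone, Trim71 and Tarbp2, and 2 with the pool and a replicate block for the position, Dicer1 and Trim71. Of all genes, 51 were called higher and 78 lower in KO in the main fit, against 367 and 96 in libB alone. With the block they were 639 and 153. At 2c, 0 became 1 with DESeq2's size factors, with DESeq2's test and with all libraries kept, Lin28a in each. The main fit there called 379 of all genes higher and 433 lower in KO. These 3 alternatives called 721 and 273, 733 and 401, and 459 and 309, in that order. For 2c against MII, 0 became 1 in libB alone, Ago1 (-6.59, edgeR adjusted p = 0.0323). Over all genes that comparison called 268 higher and 278 lower in the main fit, and 115 and 397 in libB alone. Between stages, the counts moved in single pools: on the TMM scale from MII to 2c from 5 to 2 in libA and 3 in libB in WT and from 4 to 1 in libB in KO, from 2c to 8c from 7 to 4 in libA in WT, and on the spike-in scale from MII to 2c from 7 to 4 in libB in WT and from 8 to 5 in libA in KO. Calls over all genes, higher and lower, moved too. From MII to 2c on the TMM scale WT went from 4540 and 3814 to 2747 and 2294 in libA. In libB they were 3923 and 2327. KO went from 4799 and 3192 to 3340 and 1859 in libB. From 2c to 8c WT went from 3475 and 4767 to 2070 and 2618 in libA. On the spike-in scale from MII to 2c, WT went from 2326 and 8474 to 2418 and 4543 in libB. KO went from 2231 and 8306 to 1298 and 6149 in libA. Reversed values were those of Ago1 from MII to 2c in WT in libA (-1.34, TMM scale), Trim71 from 2c to 8c in WT in libA (0.17, TMM scale) and Trim71 from MII to 2c in WT in libB (0.025, spike-in scale). In oocytes spike-in totals as library sizes shifted the median over all genes by 0.30 (log2) and the share of called genes higher in KO from 39.5% to 70.8%, and Lin28a gave 0.47 there. Of the 50 genotype values of members, 27 changed sign in at least 1 alternative, among them Ago1 at 2c (3.13 in libA alone) and for 2c against MII (1.61 in libA alone), both short of the threshold there. The causes were not tested. Each pool alone holds fewer libraries. Of the single-gene values 874 kept their direction or were past the threshold in neither fit, 37 were no longer past it, 16 were newly past it and 3 reversed. The block was run in oocytes alone, since 2c positions gave 2 pairs of opposite genotype and 8c positions none. Shallow 2c libraries limit Ago1, Lin28b and Dgcr8.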
